A study of Mus musculus with 6 samples.

Results

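Genes that make, burn and store fatty acids were followed in cultured mouse ovarian surface epithelial cells labelled Lats1/2 knockout, beside control cells. The set holds 42 named genes of lipogenesis, desaturation, beta-oxidation and lipid droplets, out of 48440 genes in the count table. All 42 were found by matching the table's Ensembl identifiers to mouse gene symbols, and 39 had enough reads to be tested. The ovarian surface epithelium is the single cell layer that covers the ovary. Cells of the control group (Ad-GFP, 3 libraries, labelled WT) had received an adenovirus that carries green fluorescent protein alone. Cells of the knockout group (Ad-Cre-GFP, 3 libraries, labelled Lats1/2 knockout) had received an adenovirus with Cre recombinase as well as GFP. Poly(A) RNA was sequenced 7 days after infection in all 6. The labels leave out mouse strain and age, the promoter that drives Cre and the targeted alleles. They also do not say whether the replicates came from separate cultures, and the p-values therefore reflect the spread of these 6 libraries, which may be technical. The intended deletion, exposure to Cre and any culture difference fall together here and cannot be told apart.

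Fatty acids are built in the cytosol from citrate. ATP citrate lyase (Acly) releases acetyl-CoA, acetyl-CoA carboxylase (Acaca, Acacb) makes malonyl-CoA, and fatty acid synthase (Fasn) joins the units into palmitate, under the transcription factor SREBP1 (Srebf1). Elongases and desaturases then lengthen and unsaturate the chain. Acyl-CoA synthetases activate fatty acids for either of 2 fates, carnitine-dependent entry into mitochondria for beta-oxidation, or esterification into phospholipid and triglyceride that is kept in droplets coated by perilipins and released by lipases. LATS1 and LATS2 are the Hippo pathway kinases that hold back the coactivators YAP and TAZ.

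The libraries held 18690235 to 30304033 counts, and every Ad-Cre-GFP library was deeper than every Ad-GFP library. Lats1 was at 150.8 to 168 CPM in the controls and 36.0 to 38.6 CPM in the knockout, 23.3% of control by the fitted fold change, and Lats2 was at 76.2% of control (129.5 ± 2.16 and 98.7 ± 1.97 CPM, mean ± SD, n = 3, as for all CPM given with ±). The fall of Lats2 was thus small for a group labelled as its knockout. The counts cover whole genes and the labels do not name the deleted exons. "Knockout" is used here as the label of the group. CPM are counts scaled to a library total of 1000000 and corrected by TMM, a scaling for library composition. Ad-GFP replicate 3, the shallowest library, had a second principal component score of -18.69 where the other controls had 8.85 and 11.1; this component held 3.15% of the variance. Of 11 markers listed for the labelled epithelium and mesothelium, Krt7 had means of 1.86 and 4.91 CPM and Lhx9 of 0.623 and 0.297 CPM, and the others had means of 42.6 CPM or more. All 11 were called, 6 higher and 5 lower, and 8 changed by at least 2-fold. Of all tested genes, 69.8% were called (34.0% higher, 35.8% lower), and 13.8% were called with at least a 2-fold change. Cdh2 rose from 216 to 826 CPM, Msln from 413 to 887 CPM and Upk3b from 42.6 to 88.4 CPM, Krt7 rose by 1.39 on the log2 scale, and Krt19 fell from 559.8 to 185 CPM, Gata4 from 273 to 106 CPM and Wt1 from 201 to 90.6 CPM. Upk1b was at 422 and 584 CPM, Krt8 at 350.3 and 306.5 CPM and Krt18 at 564 and 596 CPM. Markers of fat cells were at or near 0: the 6 listed summed, as for all list sums without TMM scaling, to 0 to 0.237 CPM in the controls and 0.169 to 0.363 CPM in the knockout, and Adipoq, Plin1 and Cidec had 0 counts in all 6 libraries. Stromal fibroblast markers (5 listed, Lum at 0) summed to 379.8 to 398 and 270.6 to 291 CPM. All 4 tested ones were called lower, 3 of them by at least 2-fold. Dcn fell from 93.0 to 24.7 CPM, Pdgfra from 0.813 to 0.196 CPM, Dpt from 0.439 to 0.0228 CPM and Col1a1 from 291 to 261 CPM. Granulosa markers (5 listed, Fshr and Cyp19a1 at 0) summed to 3.26 to 3.85 and 2.99 to 4.08 CPM. Within the granulosa list Foxl2 (2.24 on the log2 scale) and Amh (1.17) rose and Inha fell (-1.52), all at 2.53 CPM or less. The part of these markers in the results was not tested.

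Most of the tested fatty acid genes were lower in the libraries labelled Lats1/2 knockout. With edgeR's quasi-likelihood test and a Benjamini-Hochberg adjusted p under 0.05 (a gene passing this is said here to be called), 27 of 39 fell, 10 rose, and Elovl1 and Dgat2 were not called. Across all 14811 genes tested 69.8% were called, 34.0% higher and 35.8% lower, so a call by itself is common in this comparison. Among the fatty acid genes 25.6% were higher and 69.2% lower. The shares of all genes are also the background for the counts of each role below. The median log2 fold change (Ad-Cre-GFP over Ad-GFP) was -0.33 for the 39 genes and -0.01 for all tested genes. Many of the 39 are well expressed, and highly expressed genes are called more often. Among the 9462 genes with a mean of at least 10 CPM, 40.0% were called higher and 38.8% lower, against 9 and 25 of the 35 fatty acid genes at that level. Large changes were about as common as elsewhere: 6 of 39 (15.4%) were called with at least a 2-fold change, against 13.8% of all genes. For 36 of 39 genes the control and knockout libraries did not overlap, against 73.0% of all genes. The number of cells and the RNA per cell cannot be told apart in these bulk libraries, and transcript levels do not measure lipid or flux.

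**Figure D1:**
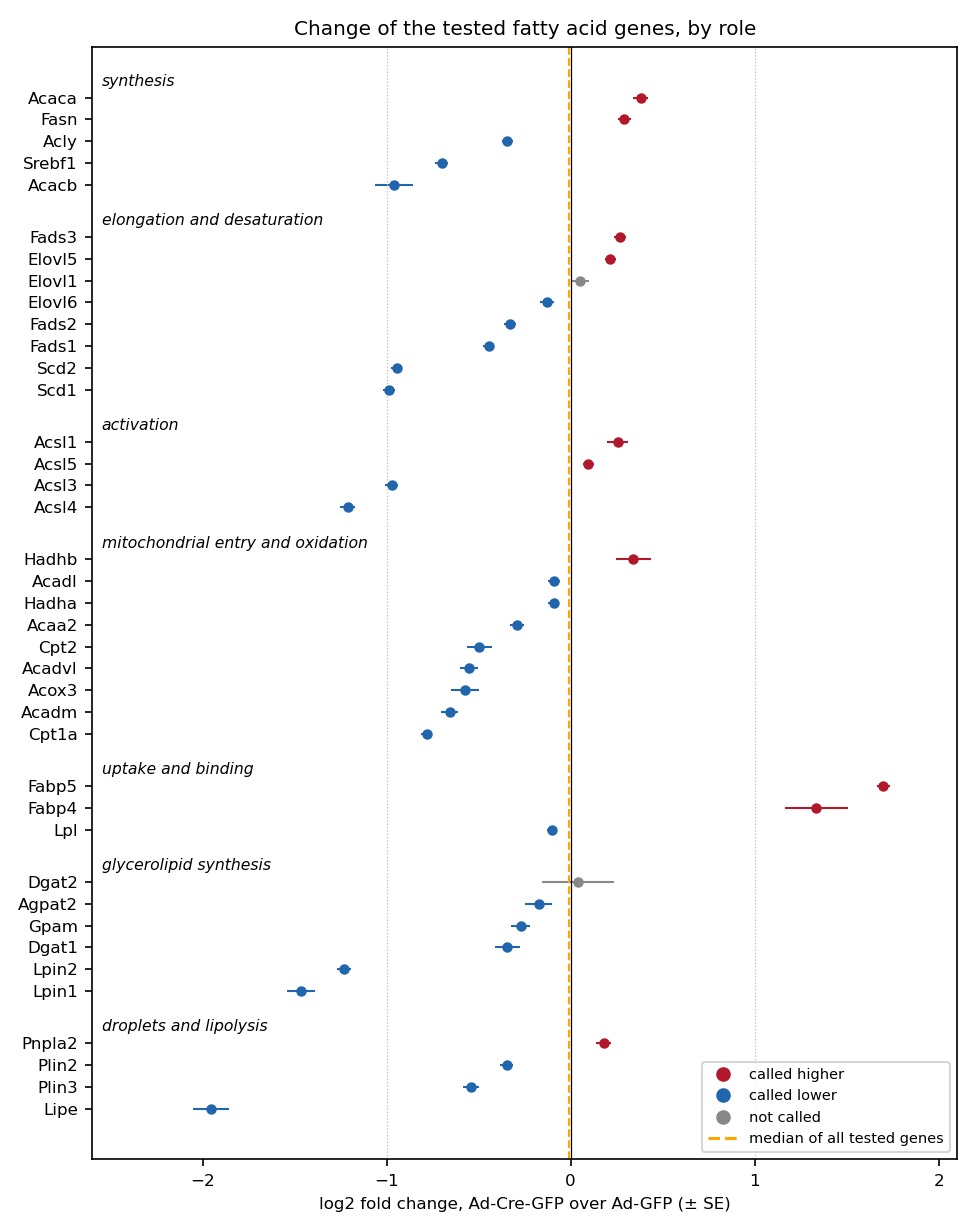
Log2 fold change (Ad-Cre-GFP over Ad-GFP, horizontal axis) with its standard error for the 39 tested genes, grouped by role and coloured by call, with dotted lines at a 2-fold change and a dashed line at the median of all tested genes. Blue points (called lower) outnumber red ones 27 to 10, and Fabp5 and Fabp4 are the 2 genes to the right of the upper dotted line.

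**Figure D2:**
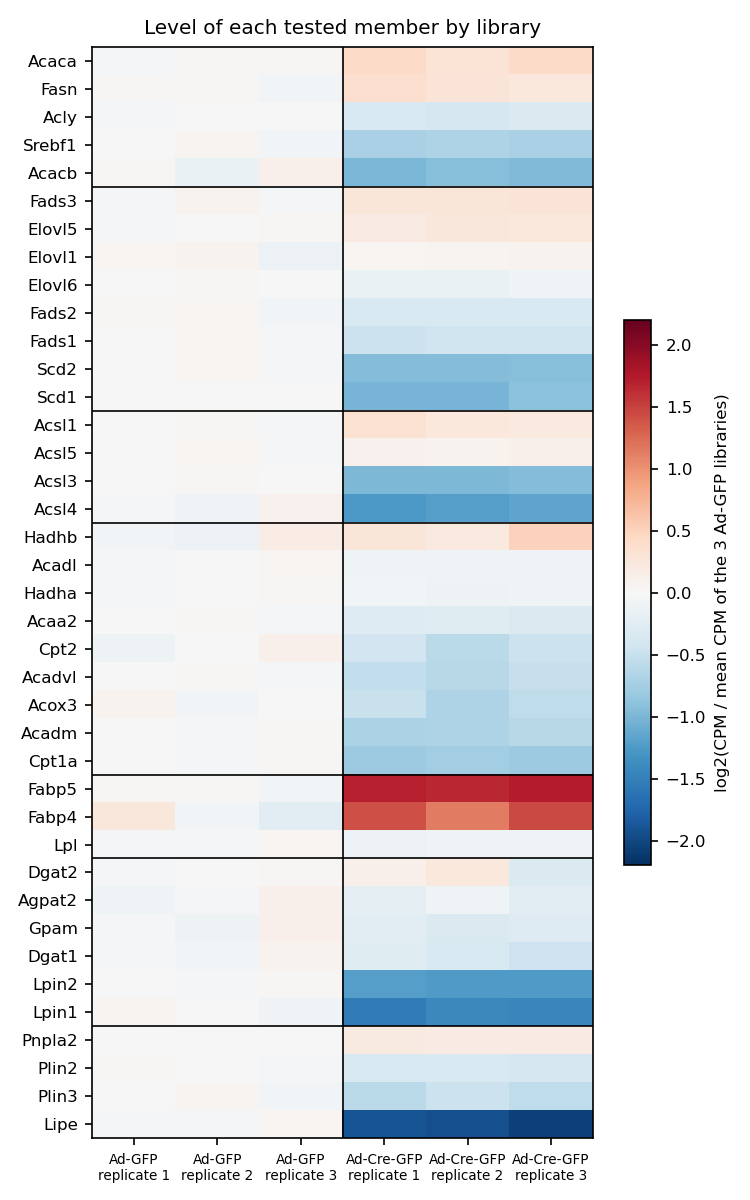
Each tested gene (rows, ordered by role as in the plot of fold changes) in each library (columns), as log2 of its TMM-scaled CPM over the mean of the 3 Ad-GFP libraries. The colours of the 3 Ad-Cre-GFP columns are alike within most rows, and the control columns stay close to 0.

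Synthesis genes went both ways, with 2 of 5 called higher and 3 called lower. Acaca, the cytosolic carboxylase, rose from 49.7 ± 1.23 to 64.7 ± 2.92 CPM (log2 fold change 0.38 ± 0.04 SE, adjusted p = 5.50e-08). Fasn was at 570.1, 575 and 540.1 CPM in the controls and 723, 684 and 656 CPM in the knockout, a rise of 0.29 ± 0.04 (adjusted p = 3.18e-07). All 3 knockout libraries lay above all 3 controls for both enzymes. Srebf1, their transcriptional regulator, fell instead, from 185 ± 8.59 to 114 ± 1.89 CPM (-0.70 ± 0.03, adjusted p = 7.69e-14). Acly, the upstream source of acetyl-CoA, fell from 337 to 266 CPM (-0.34 ± 0.03). Acacb, the carboxylase bound to the mitochondrial membrane whose malonyl-CoA restrains carnitine palmitoyltransferase, fell from 8.56 ± 0.776 to 4.37 ± 0.0879 CPM (-0.96 ± 0.10). Per kilobase of transcript, Acaca was 5.39 ± 0.563 times the level of Acacb in the controls and 13.7 ± 0.853 times in the knockout. Another annotated gene, Gm5182, is 99.2% identical to Acaca over 6118 bases and was not among the counted genes. The level of Acaca and this ratio are therefore uncertain. Levels per kilobase use the longest principal transcript of each gene in GENCODE.

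Both stearoyl-CoA desaturases, which put the first double bond into saturated chains, fell by close to 2-fold. Scd2 was at 3580, 3675 and 3497 CPM in the controls and 1848, 1854 and 1883 CPM in the knockout (-0.95 ± 0.03, adjusted p = 2.91e-17). Scd1 was at 670.3, 669 and 664 CPM in the controls and 329, 328 and 355 CPM in the knockout (-0.99 ± 0.03, adjusted p = 6.87e-17). The groups were far apart for both genes, and the ratio of Scd2 to Scd1 per kilobase stayed near the same value, 4.75 ± 0.102 in control and 4.90 ± 0.175 in knockout libraries. With reads of near-identical pseudogenes left out, Scd2 had the highest level per kilobase of the 42 genes (657 ± 16.4 and 341 ± 3.47 CPM per kb). It alone held 35.95% to 36.8% of the summed CPM of the 42 genes in the controls and 25.5% to 25.8% in the knockout. Scd1 and Scd2 lie 87.6 kb apart on chromosome 19, and their transcripts are 93.6% identical over 897 bases, so the split of reads between them is uncertain.

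The 3 fatty acid desaturases Fads1, Fads2 and Fads3 form a cluster on chromosome 19. Fads1, the delta-5 desaturase of polyunsaturated fatty acids, fell from 526.5 ± 12.8 to 386.5 ± 4.40 CPM (-0.45 ± 0.03), and Fads2, the delta-6 desaturase, fell from 315 ± 13.1 to 251 ± 1.15 CPM (-0.33 ± 0.03). Their neighbour Fads3, 2.65 kb from Fads2, rose from 295 ± 14.1 to 356 ± 2.53 CPM (0.27 ± 0.03, adjusted p = 2.23e-07). Among the elongases, Elovl5, which extends polyunsaturated chains, rose from 149 to 173 CPM (0.22 ± 0.03). Elovl6, which extends palmitate, fell from 59.6 to 54.6 CPM (-0.13 ± 0.04, adjusted p = 0.00528). Elovl1, an elongase of very long chains, was at 63.0 ± 4.98 and 65.6 ± 0.745 CPM with overlapping groups and was not called (0.05 ± 0.05, adjusted p = 0.313). The elongation and desaturation genes, Scd1 and Scd2 included, summed to 5585 to 5844 CPM in the controls and 3402 to 3492 CPM in the knockout, without TMM scaling. Most of this sum and of its fall came from Scd2 and Scd1. Their TMM-scaled means were 3584 and 1862 CPM for Scd2 and 667.7 and 337.2 CPM for Scd1.

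Acyl-CoA synthetases, which couple fatty acids to coenzyme A, split into a pair that fell and a pair that rose slightly. Acsl4 (chromosome X, 142317993 to 142390535, GRCm38), which prefers arachidonic acid and is known for its part in ferroptosis, was at 176, 171 and 192.5 CPM in the controls and 74.7, 77.5 and 80.2 CPM in the knockout. Every knockout library was below every control (-1.21 ± 0.04, adjusted p = 4.49e-15). Acsl3, a droplet-associated synthetase, fell from 96.4 ± 1.55 to 49.1 ± 0.762 CPM (-0.97 ± 0.04). Acsl5, the most abundant of the 4 per kilobase (111 and 119 CPM per kb), rose only from 471 ± 14.9 to 503 ± 4.46 CPM (0.09 ± 0.03, adjusted p = 0.00828), and Acsl1 rose to 21.5 CPM, 119% of control (0.26 ± 0.06). Acsl3 shares exon sequence with Utp14b on the same strand. Acsl5 shares 8.31% of its exonic bases with Zdhhc6 on the opposite strand. Over all libraries Zdhhc6 held 13966 counts and Acsl5 74869, and the counting is not stated to use strand.

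Mitochondrial entry and beta-oxidation genes were mostly lower, with changes under 2-fold: of 10 listed, 8 fell, Hadhb rose and Cpt1c was too low to test. Over all tested genes 35.8% were called lower and 34.0% higher. Cpt1a, the carnitine palmitoyltransferase that controls entry of long chains, changed most, from 325, 321.5 and 331 CPM in the controls to 188, 193 and 188 CPM in the knockout (-0.78 ± 0.03, adjusted p = 6.22e-16). The groups were separated by more than 100 CPM. Cpt2, which returns the chain to CoA inside the mitochondrion, fell from 21.1 ± 1.61 to 14.9 ± 0.908 CPM (-0.50 ± 0.07). Of the acyl-CoA dehydrogenases, Acadm (medium chains) fell by 0.66 on the log2 scale, from 46.98 ± 0.845 to 29.8 ± 0.885 CPM, and Acadvl (very long chains) by 0.55, from 33.9 ± 0.719 to 23.2 ± 0.818 CPM. Acadvl shares 42.9% of its exonic bases with Dvl2 on the opposite strand, and the counting is not stated to use strand. Acadl (long chains) was at 93.0 ± 2.79 and 87.3 ± 0.386 CPM, a small fall (-0.09 ± 0.03, adjusted p = 0.0224) and this call did not hold in DESeq2 (adjusted p = 0.126) or with no low-count filter (0.127). Leaving out Ad-GFP replicate 3 (adjusted p = 0.0634) or any Ad-Cre-GFP library (0.0858, 0.0776 and 0.0974 for replicates 1, 2 and 3) ended it too. Acaa2, the thiolase of the last step, fell from 69.7 ± 2.07 to 56.97 ± 1.07 CPM (-0.29 ± 0.04). Acox3, a peroxisomal oxidase of branched chains, fell from 15.2 ± 0.709 to 10.2 ± 0.686 CPM (-0.57 ± 0.07).

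Hadha and Hadhb, the alpha and beta subunits of the mitochondrial trifunctional protein, face away from each other on chromosome 5 with 85 bases between their annotated starts. Hadha was at 115 ± 2.31 and 107 ± 1.68 CPM (-0.09 ± 0.03, adjusted p = 0.0138), a call that did not hold in DESeq2 (adjusted p = 0.0878), with no low-count filter (0.0942), or when replicate 2 (0.0722) or replicate 3 (0.0959) of the knockout was left out. Hadhb was at only 9.16, 8.76 and 10.7 CPM in the controls and 11.4, 11.0 and 13.6 CPM in the knockout (0.34 ± 0.09, adjusted p = 0.00309). A processed pseudogene, Gm13910, is 99.8% identical to Hadhb over 1428 bases and was counted at 51.6 ± 1.24 and 57.6 ± 2.09 CPM, so the pseudogene's row held most of the counts of this sequence. With the reads of the copy added, Hadhb was at 61.1 ± 1.04 and 69.6 ± 0.851 CPM and its rise was 0.19 ± 0.04 (adjusted p = 9.45e-05). The bases between the 2 starts are shown because a single short stretch separates a gene that was lower from a gene that was higher. They lie at chr5:30155163-30155247, are written on the plus strand, that of Hadhb, and hold none of the 4 motifs searched below.

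Hadha-Hadhb gap: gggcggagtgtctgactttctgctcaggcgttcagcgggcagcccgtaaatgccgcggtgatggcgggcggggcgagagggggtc

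Fatty acid uptake and binding was the only role whose median was above 0, with 2 rises and 1 fall among 3 tested genes and Cd36 and Fabp3 too low to test. Fabp5 (chromosome 3, 10012548 to 10016607), a cytosolic carrier of epithelial cells, was at 39.7, 40.1 and 37.8 CPM in the controls and 129, 124 and 129.9 CPM in the knockout. This was the largest rise of the set, 3.25-fold (1.70 ± 0.04, adjusted p = 6.86e-20). Its pseudogene Gm6166, 98.3% identical over 409 bases, was counted at 82.6 ± 5.74 and 262 ± 6.98 CPM, and Gm14328 at 4.86 and 15.9 CPM. With 5 annotated copies added, Fabp5 went from 127 ± 7.40 to 406.5 ± 3.04 CPM (1.68 ± 0.04), so the rise with the copies was close to that of Fabp5 alone. Fabp4 (chromosome 3, 10204088 to 10208576), the carrier of fat cells, macrophages and capillary endothelium, was low: 1.64, 1.33 and 1.17 CPM in the controls and 3.69, 3.05 and 3.80 CPM in the knockout (1.34 ± 0.17, adjusted p = 5.23e-07). Its groups did not overlap. The endothelial marker Kdr rose as well (0.0565 and 2.00 CPM). The 5 endothelial markers listed summed, without TMM scaling, to 0.107 to 0.473 CPM in the controls and 2.13 to 2.61 CPM in the knockout, but Kdr alone could be tested: Pecam1 was at 0.201 and 0.116 CPM, Tek at 0.0413 and 0.196 CPM, Tie1 at 0 in all libraries and Cdh5 at 0 in the controls and 0.0345 CPM in the knockout. Their part in the rise of Fabp4 was not tested. Among macrophage and other immune markers, Adgre1 was at 0 in every library, and the 6 listed summed to 10.96 to 13.4 and 6.57 to 7.14 CPM. Nearly all of this sum was Cd14 (9.46 and 4.01 CPM, called lower) and Cd68 (2.81 and 2.76 CPM, not called). Ptprc, Csf1r and Lyz2 were too low to test.

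Lpl, the secreted lipase that frees fatty acids from lipoproteins, was second to Scd2 per kilobase, at 277 ± 6.05 and 258 ± 4.06 CPM per kb. This order leaves out pseudogene copies. With its copies added, Fabp5 (a transcript of 987 bases) was at 406.5 CPM in the knockout, higher per kilobase than Lpl and Scd2 there. Lpl fell slightly, from 1141 ± 24.9 to 1063 ± 16.7 CPM (-0.10 ± 0.03, adjusted p = 0.0041), and leaving out replicate 1 of the knockout ended the call (adjusted p = 0.0641). Counts of 3 genes of the list were near 0. Cd36, the membrane translocase, had 5, 4 and 2 counts in the controls and 3, 3 and 1 in the knockout. Fabp3, the heart-type carrier, had 3, 7 and 3 against 3, 7 and 6 counts, and Cpt1c, the brain-type isoform, 5, 1 and 4 against 13, 5 and 8. All 3 fell below the low-count filter and were not tested, so no difference is stated for them. For scale, 3 counts, the limit that a count of 0 allows, are worth 0.0990 to 0.161 CPM, counting error only.

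**Figure D3:**
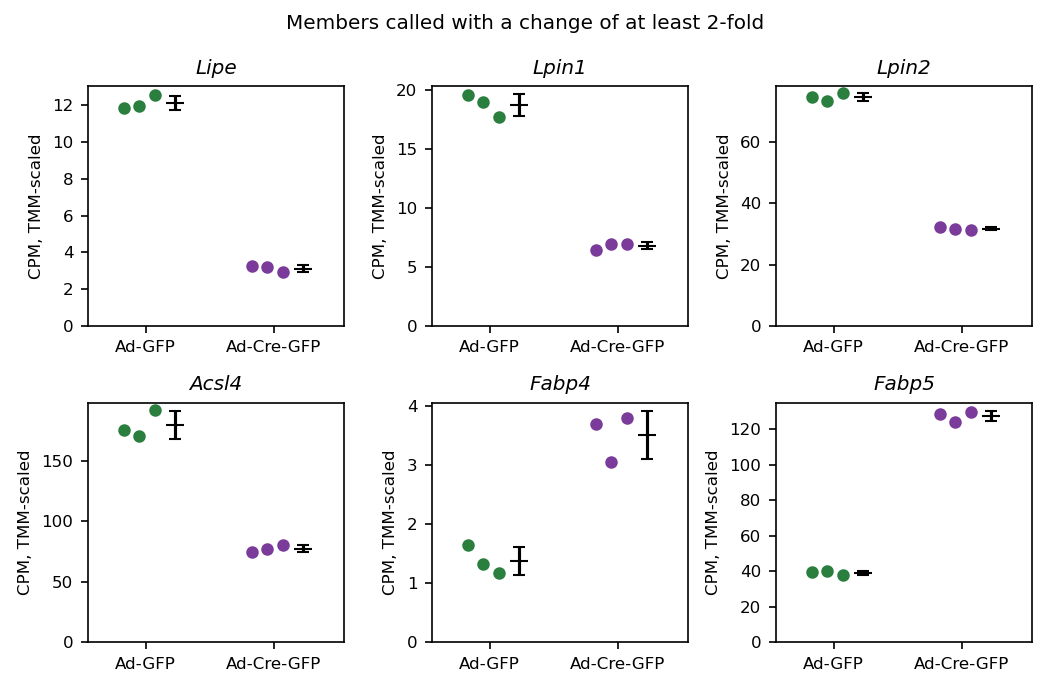
TMM-scaled CPM (vertical axes, each from 0) in every library of the 6 genes called with at least a 2-fold change, 3 Ad-GFP and 3 Ad-Cre-GFP points per panel, with the mean and SD beside them. Lipe, Lpin1, Lpin2 and Acsl4 have all knockout points below all control points, and Fabp4 and Fabp5 the reverse.

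**Figure D4:**
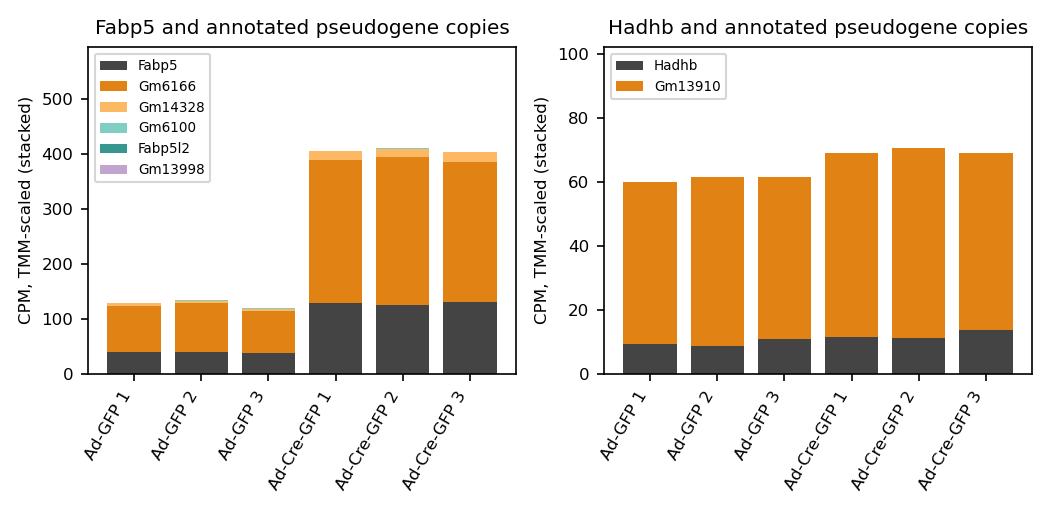
Stacked TMM-scaled CPM of Fabp5 (left) and Hadhb (right) with their annotated pseudogene copies in each library. The orange blocks, Gm6166 and Gm13910, are taller than the grey blocks of the genes themselves in all 6 libraries.

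Phosphatidate phosphatases of the lipin family, which make the diacylglycerol from which triglyceride and phospholipid are built, fell most among the glycerolipid genes. Lpin1 (chromosome 12, 16535669 to 16610966) was at 19.6, 18.98 and 17.8 CPM in the controls and 6.46, 6.99 and 6.97 CPM in the knockout, 2.76-fold lower (-1.47 ± 0.07, adjusted p = 1.26e-13). Lpin2 (chromosome 17, 71182560 to 71249817) was at 74.5, 73.2 and 75.9 CPM in the controls and 32.3, 31.6 and 31.2 CPM in the knockout, 2.35-fold lower (-1.23 ± 0.04, adjusted p = 5.23e-17). No knockout library came near a control library for either gene. The other listed genes changed less. Gpam, the mitochondrial acyltransferase of the first step, fell from 41.0 ± 3.23 to 33.8 ± 0.844 CPM (-0.27 ± 0.05). Dgat1, which adds the last chain of triglyceride, fell from 17.6 ± 0.859 to 13.8 ± 0.886 CPM (-0.34 ± 0.07). Dgat2, the other enzyme of that step, was at 1.67 ± 0.0288 and 1.71 ± 0.324 CPM and was not called (0.04 ± 0.19, adjusted p = 0.865). Agpat2, which acylates lysophosphatidate, was at 14.9 ± 1.12 and 13.1 ± 0.699 CPM with overlapping groups. Its call (-0.17 ± 0.07, adjusted p = 0.0380) was lost under 8 of 15 alternatives, among them DESeq2 (adjusted p = 0.149) and leaving out Ad-GFP replicate 2 (0.0601), Ad-GFP replicate 3 (0.165), Ad-Cre-GFP replicate 1 (0.141) or Ad-Cre-GFP replicate 3 (0.154). Outside the list, the acyltransferases Gpat4 (159 to 186 CPM, 0.22 ± 0.04), Agpat1 (63.4 to 73.9 CPM, 0.22 ± 0.04) and Agpat5 (61.7 to 72.1 CPM, 0.22 ± 0.04) rose, as did Agpat3. Agpat4 fell, Gpat3 was not called and Gpat2 was too low to test.

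Lipolysis genes diverged. Lipe (chromosome 7, 25379527 to 25398710), hormone-sensitive lipase, was at 11.9, 11.97 and 12.6 CPM in the controls and 3.25, 3.18 and 2.92 CPM in the knockout. It showed the largest fall of the set, 3.88-fold (-1.96 ± 0.10, adjusted p = 7.48e-14). Pnpla2, adipose triglyceride lipase, which takes the first chain off triglyceride, rose from 44.7 ± 0.453 to 50.6 ± 0.427 CPM (0.18 ± 0.04, adjusted p = 0.000422). Per kilobase the ratio of Pnpla2 to Lipe was 7.41 ± 0.244 in the controls and 32.7 ± 1.73 in the knockout. Hormone-sensitive lipase is also a cholesterol esterase of steroid-making cells, and its marker Star fell as well (25.2 and 5.83 CPM). The 5 theca and steroidogenic markers listed summed, without TMM scaling, to 23.3 to 28.5 CPM in the controls and 4.96 to 6.49 CPM in the knockout, with Hsd3b1 and Lhcgr at 0 in all libraries and Cyp11a1 and Cyp17a1 at no more than 3 counts in any library. Their part in the fall of Lipe was not tested. Lipe shares 15.6% of its exonic bases with an antisense gene, 4732471J01Rik, that held 65 counts in all libraries against 1073 for Lipe. The droplet coat proteins fell together: Plin2 from 71.6 ± 1.81 to 56.2 ± 0.769 CPM (-0.35 ± 0.04) and Plin3 from 69.7 ± 3.05 to 47.9 ± 2.02 CPM (-0.54 ± 0.04).

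Promoter windows from RefSeq (GRCm38.p6, 250 bases before to 50 after a start) were available for 33 of the 42 genes, 41 windows in all; Scd1, Scd2, Fads1, Fabp4, Fabp5, Lpl, Dgat1, Dgat2 and Acaa2 were without one. The windows were searched on both strands for TCACCCCAC (SREBP sterol element), ACGTG (core of the hypoxia element), CACGTG (E-box, which always contains the hypoxia core) and GGAATG (TEAD, the DNA-binding partner of YAP and TAZ). The sterol element was in 1 of 41 windows (2.44%) and in 0.551% of the 32851 windows of all genes, the hypoxia core in 10 (24.4% against 19.6%), the E-box in 4 (9.76% against 7.15%) and the TEAD letters in 4 (9.76% against 14.7%). Genes that fell and genes that rose both carry the hypoxia core, the E-box and the TEAD letters. The sterol element was in Acsl1 alone, which rose. The E-box was in windows of Elovl5, which rose, and of Lipe, Lpin2 and Plin2, which fell. TEAD letters were in windows of Acsl1, which rose, and of Cpt1a, Gpam and Acox3, which fell. The window of Fasn, the most abundant synthesis enzyme that rose, held none of the 4 motifs before its start. Such a match is a description of the letters and not evidence of binding. The bases before the start, without annotated exons, are printed for 4 genes as examples of these motifs. Lpin2 and Cpt1a fell, and Elovl5 and Acsl1 rose. The bases run from 5' to 3' on the strand of the gene (the plus strand for all 4), with the motif in capitals. Lpin2 is at chr17:71183282-71183531, within the annotated gene at a start downstream of the first, and Elovl5 at chr9:77917115-77917363, each with an E-box. Cpt1a is at chr19:3323051-3323284, also within the gene, with the TEAD letters, and Acsl1 at chr8:46490716-46490965, within the gene too, with the sterol element on the opposite strand.

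Lpin2 (fell): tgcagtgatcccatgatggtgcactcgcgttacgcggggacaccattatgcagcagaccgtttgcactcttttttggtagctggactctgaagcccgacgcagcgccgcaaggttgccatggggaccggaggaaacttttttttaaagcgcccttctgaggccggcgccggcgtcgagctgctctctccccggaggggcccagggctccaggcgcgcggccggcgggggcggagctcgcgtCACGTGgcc
Elovl5 (rose): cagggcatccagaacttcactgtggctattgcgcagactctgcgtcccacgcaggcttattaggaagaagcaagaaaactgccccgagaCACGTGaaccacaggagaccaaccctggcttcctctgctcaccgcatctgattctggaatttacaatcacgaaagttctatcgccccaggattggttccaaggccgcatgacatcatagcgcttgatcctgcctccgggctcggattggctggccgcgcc
Cpt1a (fell): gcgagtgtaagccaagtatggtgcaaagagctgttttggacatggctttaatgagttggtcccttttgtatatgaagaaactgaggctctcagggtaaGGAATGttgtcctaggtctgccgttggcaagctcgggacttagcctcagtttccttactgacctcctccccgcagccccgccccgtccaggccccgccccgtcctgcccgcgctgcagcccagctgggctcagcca
Acsl1 (rose): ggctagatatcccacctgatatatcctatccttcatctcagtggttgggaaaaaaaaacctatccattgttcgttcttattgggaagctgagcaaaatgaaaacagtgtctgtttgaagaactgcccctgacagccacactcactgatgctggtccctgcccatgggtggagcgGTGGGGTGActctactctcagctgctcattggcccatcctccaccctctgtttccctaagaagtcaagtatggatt

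Further genes of the same pathways, 118 in all, gave the wider setting. Of 89 that could be tested 27 rose, 46 fell and 16 were not called, with a median log2 fold change of -0.20; over all tested genes 34.0% rose and 35.8% fell, the background for these counts and for those of each list that follows. Among 24 further synthesis and elongation genes 7 rose and 13 fell. Hacd3, a dehydratase of the elongation cycle, fell by 1.03 on the log2 scale (SE 0.03), Insig2, which holds SREBP in the endoplasmic reticulum, by 1.27 (SE 0.04) and Me1, malic enzyme and a source of NADPH, by 0.99 (SE 0.04). The other dehydratases Hacd2 (0.55 ± 0.06) and Hacd1 (0.82 ± 0.13) rose, as did Mecr, the reductase of mitochondrial fatty acid synthesis (0.48 ± 0.06). Oxidation genes outside the list were also mostly lower, with 20 falls and 4 rises among 31 and a median of -0.32. Echs1, which hydrates enoyl-CoA (-0.78 ± 0.03), the peroxisomal thiolase Acaa1a (-0.78 ± 0.04) and the carnitine octanoyltransferase Crot (-1.04 ± 0.05) fell, while Acad9 (0.44 ± 0.05) and Acox2 (0.74 ± 0.23) rose.

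Of 14 further uptake, activation and thioesterase genes, 9 fell and 4 rose. Acsbg1, a long-chain acyl-CoA synthetase, fell from 93.7 ± 2.15 to 14.1 ± 0.785 CPM (-2.73 ± 0.05, adjusted p = 1.12e-21), Acsf2, a mitochondrial synthetase, from 37.1 ± 1.90 to 12.2 ± 0.842 CPM (-1.60 ± 0.06), and Lmf1, needed for the maturation of lipoprotein lipase, from 17.9 ± 0.585 to 7.77 ± 0.111 CPM (-1.20 ± 0.07). Endothelial lipase Lipg rose from 2.06 ± 0.145 to 6.04 ± 0.369 CPM (1.55 ± 0.13), and the thioesterases Acot13 (0.43 ± 0.05) and Acot7 (0.28 ± 0.04) rose less. Storage and lipolysis genes outside the list went the other way, with 12 rises and 4 falls among 20 and a median of 0.22. The phosphatases Plpp2 (0.77 ± 0.03) and Plpp1 (0.91 ± 0.08) and the acyltransferase Agpat3 (0.36 ± 0.03) rose. Pparg, the transcription factor of fat storage, fell from 6.92 ± 0.986 to 0.874 ± 0.161 CPM (-2.96 ± 0.17, adjusted p = 7.06e-13), and Agpat4 (-0.62 ± 0.05) and Hsd17b11 (-0.91 ± 0.09) fell too. Mgll, which hydrolyses monoglyceride, had the largest rise of the 89 further genes, from 0.489 ± 0.0863 to 2.01 ± 0.124 CPM (2.01 ± 0.24), and is named because of its value.

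**Figure D5:**
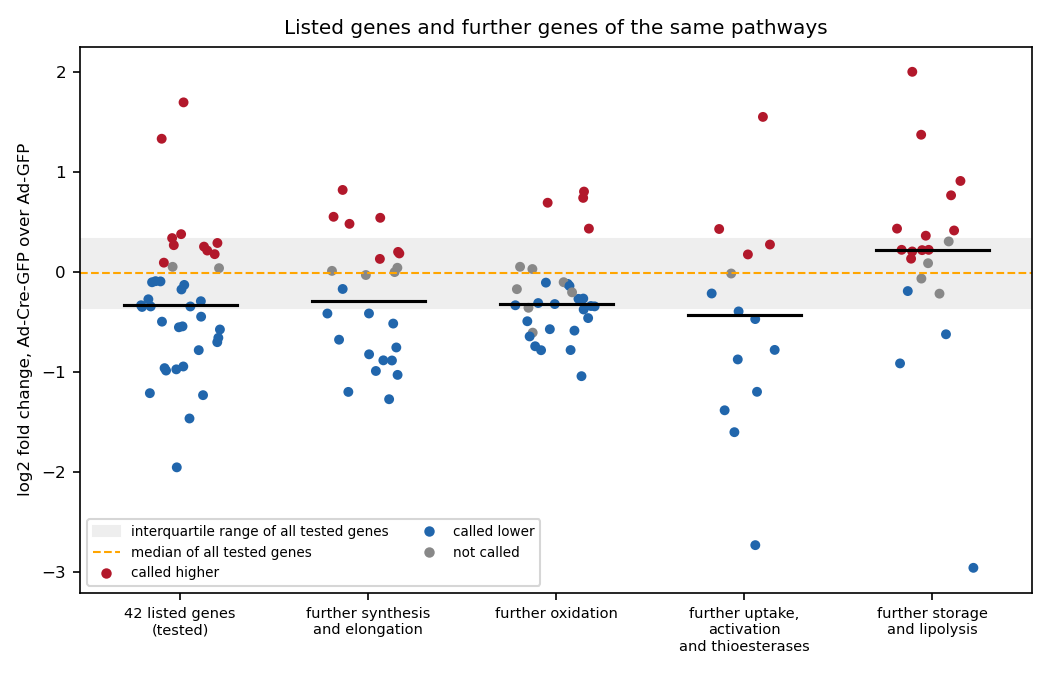
Log2 fold change (vertical axis) of the tested genes of the 42 and of 4 further lists of the same pathways, 1 point per gene coloured by call, with a black bar at each median, a dashed line at the median of all tested genes and a grey band over their interquartile range. Medians lie below 0 in all columns but the last, further storage and lipolysis (0.22).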

How the data were processed

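RNA was sequenced from 3 Ad-GFP and 3 Ad-Cre-GFP libraries. The table the authors deposited gives whole-number counts of reads per gene, with columns named after BAM files, per the file headers. Kallisto 0.46.2, sleuth 0.30.1 and GRCm38 stand in the submitters' processing notes. How reads were aligned and counted, and how strand and multiple matches were treated, is not given in the sources used here, which leaves genes with near-identical copies or overlapping neighbours uncertain.

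Symbols and coordinates came from GENCODE mouse release 21 (GRCm38) for 48058 of 48440 IDs, and the 382 others held 0.0381% of counts. All genes that passed filterByExpr were fitted together in R 4.3.3 with edgeR 4.0.16 (TMM, robust quasi-likelihood test, group as the only term), with Benjamini-Hochberg adjustment over all 14811. Standard errors are the log2 fold change over the square root of F. The fit was tested on simulated data. Replicates of a group differed by a chi-square per gene of 2.04 to 4.27 (1 for sampling noise alone), highest between Ad-GFP replicates 2 and 3. All 6 libraries were kept, and leaving out each was among the alternatives. Copies were searched for with minimap2 2.31 (at least 200 bases at 90% identity).

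The 42 members and all lists were chosen with earlier results of these data known. Members called with a log2 change of at least 1 are given in every library, those called with at least 0.58 by group means, and the rest by group with their fold change; library values of Fasn, Scd1, Scd2, Cpt1a and Hadhb were added after their values were seen. Lats1 and Lats2 are named as targets, and from each further list up to 3 called genes per direction with the smallest adjusted p, except 1 that is not reported here. Alternatives were other size factors, filters and tools (DESeq2 1.42.0, limma-voom 3.58.1), a replicate block, thinning and leaving out each library. Adding pseudogene copies and the comparison at a mean of at least 10 CPM were chosen after seeing the data.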

Additional observations from a re-analysis of the deposited data

How the results depend on the processing

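The counts kept within 1.5 times of their values under all 15 alternatives tried. The number of fatty acid genes called higher was 10 in every one, and the number called lower ran from 24 (DESeq2, no low-count filter, and without Ad-Cre-GFP replicate 1 or 3) to 27. Their median log2 fold change ran from -0.35 with upper-quartile scaling to -0.28 without Ad-Cre-GFP replicate 3, and calls over all genes from 9351 (DESeq2) to 10854 (no low-count filter). Without Ad-GFP replicate 3, the library that stood apart, 25 fell and 10 rose. Of 585 gene-level values of the 39 genes, none of the called ones changed sign and 19, from Acadl, Hadha, Lpl and Agpat2, lost their call. All 405 values of 27 other genes (Lats1, Lats2 and genes of the further lists, no cell type markers) kept direction and call. With pseudogene copies added, 27 fell and 10 rose, and the median was -0.31.

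Replicate numbers are shared between the groups. Between same-numbered libraries, deviations from the group mean had correlations of 0.05, 0.05 and 0.01. With 3 libraries per group, these values cannot decide whether the numbers pair the samples, and pairing stays unknown. With the replicate block, 10478 genes were called, 10 of the fatty acid genes higher and 27 lower. Other size factors moved the median of all genes by at most 0.01 on the log2 scale. Low counts kept Cd36, Fabp3 and Cpt1c out of the test.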
